A study of Mus musculus with 2 samples.

Results

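The genes described here are 7 cell surface receptors with which lymphocytes enter, cross and leave lymphoid tissue: Ccr7, S1pr1, S1pr4, Cxcr4, Ccr9, Gpr183 and Selplg. They were chosen by name, as the symbols of these receptors among the 32285 genes listed in both libraries, and each symbol matched 1 gene. Their levels were described by T cell state in regulatory T cells (Tregs) with and without the zinc finger protein Zfp335. The cells came from the spleens of 7-day-old C57BL/6J mice and were sorted as YFP+7AAD- cells, with YFP, which is fused to the Cre and made from the Foxp3 gene, marking Foxp3-expressing cells and 7AAD marking dead cells. The WT group was Foxp3-Cre mice and the KO group Zfp335fl/flFoxp3-Cre mice, so both groups carry the Cre recombinase that the Treg gene Foxp3 drives. Each genotype gave 1 droplet-based single-cell library, and the number of mice in each was not given in the sources used here.

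Lymphocytes move by reading chemical gradients and by sticking to vessel walls. CCR7 responds to CCL19 and CCL21 and brings T cells from the blood into lymph nodes and into the T cell zone of the spleen, whereas PSGL-1, the product of Selplg, binds the selectins that slow cells on endothelium. S1PR1 senses the lipid sphingosine-1-phosphate (S1P), which is high in blood and lymph, and is the receptor by which T cells leave the thymus and lymphoid organs. S1PR4 is a further S1P receptor of blood cells. GPR183 (EBI2) follows oxysterols to the edges of B and T cell zones, CCR9 answers CCL25 of thymus and small intestine, and CXCR4 answers CXCL12 of bone marrow and stroma. The transcription factor KLF2, which is under the control of FOXO1, is known to raise S1pr1, and CD69 removes S1PR1 from the cell surface.

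In the GRCm38 mouse genome with GENCODE vM21 genes, Ccr7 (ENSMUSG00000037944) is at chr11:99144196-99155077 on the minus strand and Selplg (ENSMUSG00000048163) at chr5:113818536-113832644, minus. S1pr1 (ENSMUSG00000045092) is at chr3:115710433-115715072 and S1pr4 (ENSMUSG00000044199) at chr10:81497747-81500132, both on the minus strand. Gpr183 (ENSMUSG00000051212) is at chr14:121952551-121965195, minus, and lies inside Ubac2, a gene of the opposite strand. Ccr9 (ENSMUSG00000029530) is at chr9:123678439-123784330, plus, in a span that several annotated genes of both strands overlap. Cxcr4 (ENSMUSG00000045382) is at chr1:128588199-128592293, minus. Whether counting used the strand is not given in the sources used here, so reads of Gpr183 and Ubac2, or of Ccr9 and its neighbours, may not have been told apart.

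RefSeq promoter windows on GRCm38.p6 were at hand for 4 of the 7 genes: Cxcr4, Ccr9, S1pr4 and Gpr183. The 250 bases before the transcription start are shown for Gpr183, the receptor with the lowest KO level relative to WT over all T cells, and for S1pr4, which in resting cells differed in the other direction. Both read 5′ to 3′ on the gene's own strand, and capitals mark CG dinucleotides. The Gpr183 window is chr14:121965194-121965443 (minus) inside Ubac2, with 2 exonic bases, and the S1pr4 window is chr10:81500138-81500387 (minus), with no annotated gene.
Gpr183: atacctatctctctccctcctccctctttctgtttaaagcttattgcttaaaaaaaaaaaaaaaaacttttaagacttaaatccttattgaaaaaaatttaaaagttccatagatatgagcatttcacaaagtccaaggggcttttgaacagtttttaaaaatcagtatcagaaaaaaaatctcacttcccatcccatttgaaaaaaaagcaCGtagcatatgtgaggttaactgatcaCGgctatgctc
S1pr4: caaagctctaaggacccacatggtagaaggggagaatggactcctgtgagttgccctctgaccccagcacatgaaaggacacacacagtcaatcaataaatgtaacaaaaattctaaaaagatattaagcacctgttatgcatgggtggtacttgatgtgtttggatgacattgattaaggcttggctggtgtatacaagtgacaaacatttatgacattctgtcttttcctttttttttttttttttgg
The Gpr183 window was 32% G and C with 2 CG dinucleotides, and the S1pr4 window 38.8% with 0, against a median of 52.4% over the same 250 bases of 32851 promoters. Ccr9 (50.4%, 3 CG dinucleotides) and Cxcr4 (61.2%, 19) lay nearer to the median or above it. A FOXO core motif (TGTTTAC, either strand) was in 0 of the 4 windows and in 3.17% of all windows. A KLF-type motif (CCACACCC, either strand) was also in 0 of the 4 and in 3.20% of all. No match says only that these letters are not in these bases.

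The WT library held 64567991 unique molecular identifiers (UMIs, each standing for 1 captured transcript) in 14524 barcodes, and the KO library 65480052 in 18134. A filter of 300 or more genes and no more than 5% mitochondrial UMIs per barcode left 8053 WT and 13767 KO barcodes. In all, 70 barcode sequences occurred in both libraries, 29 of them kept in both. By their T cell genes, 7484 WT and 12989 KO barcodes were T-lineage, with a median of 5027 UMIs in WT and 2699 in KO. Zfp335, the deleted gene, stood at 8.19 CPM (UMIs per 1000000 UMIs) in WT and 0.801 in KO T-lineage barcodes, a KO to WT ratio of 0.0978 (95% interval 0.0694 to 0.135). Of the Treg markers, Ikzf2 had a UMI in 78.2% of WT and 59.7% of KO T-lineage barcodes and Tnfrsf18 in 62.3% and 56.4%. Il2ra had one in 38.8% and 39.6%, and Ctla4 in 34.2% and 23.6%. Ikzf2 stood at 657 and 405 CPM in T-lineage barcodes, beside 74.7 and 90.8 CPM in erythroid ones. No thinned shares were made for these genes. Without thinning, Foxp3 had a UMI in 20.5% of WT and 14.4% of KO T-lineage barcodes, beside 4.50% and 6.18% of erythroid barcodes, which should lack Foxp3. By state, Foxp3 was seen in 20.07% of WT and 20.02% of KO resting barcodes and in 22.4% to 29.0% of the other states, but in only 1.74% and 4.03% of the shallow class led by haemoglobin and granulocyte genes described below. That class therefore does not pass this check without thinning, although it has T cell receptor and CD3 genes. It makes up 14.6% of WT and 42.2% of KO T-lineage barcodes. These shares compare unlike depths. After thinning to equal depth, Foxp3 was in 4.88% of WT T-lineage (4.36 to 5.43) and 1.27% of WT erythroid barcodes (0.262 to 3.65). In KO it was in 4.10% (3.75 to 4.47) and 3.75% (2.28 to 5.80). Foxp3 at this depth therefore did not tell KO T-lineage barcodes from erythroid ones. In the shallow class the thinned shares were 2.33% in WT (0.482 to 6.65) and 2.39% in KO (1.96 to 2.88), which overlapped the erythroid shares. The thinned shares of activated and cycling barcodes were 2.33% and 2.43% in WT, and 4.10% and 4.21% in KO. Cd8a was near 0, at 0.433 and 0.648 CPM.

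Levels are CPM of the UMIs summed over the barcodes of a state, with exact 95% Poisson intervals, and a KO to WT ratio carries an exact 95% binomial interval. Both kinds of interval cover only counting error. No test between genotypes could be made from a single library of each, and a difference between libraries cannot be told apart from a difference between genotypes. T-lineage clusters fell into a resting-like state (2770 WT and 4306 KO barcodes), an effector-like state (2197 and 87), an activated-like state (688 and 1293) and a cycling-like state (659 and 1070). An interferon-led cluster held 79 and 748 barcodes. The last class, led by haemoglobin and granulocyte genes, held 1091 and 5485 barcodes with a median of 683 and 1362 UMIs. The 7 receptors and the marker genes took no part in the clustering.

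**Figure D1:**
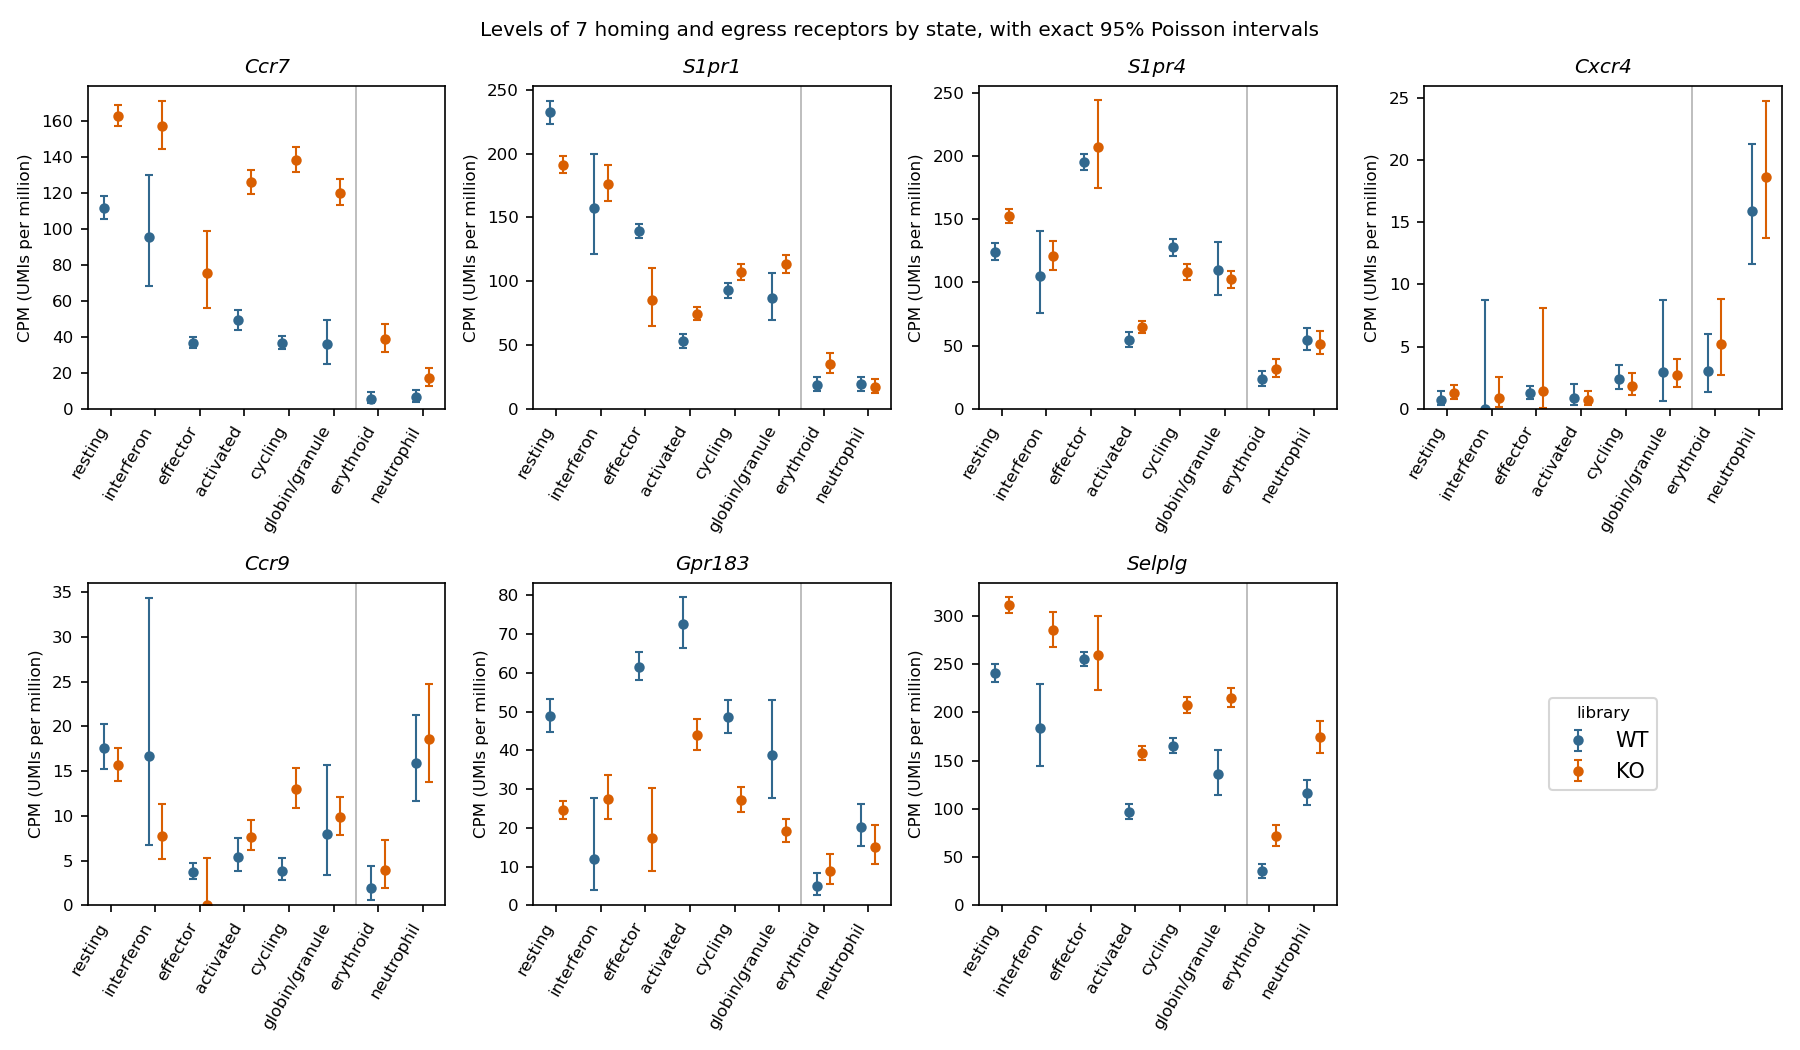
CPM of each receptor (y axis, from 0) in 6 T-lineage states and, right of the grey line, in erythroid and neutrophil barcodes, for the WT (blue) and KO (orange) library. Points are summed levels and bars exact 95% Poisson intervals. Ccr7 lies higher in KO in each T-lineage state, Gpr183 lower in all but the interferon-led cluster, and Cxcr4 is near 0 outside neutrophil barcodes.

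Of the 6 receptors with at least 200 UMIs, Ccr7 had the highest KO level relative to WT. In WT it was at 112 CPM in resting and 95.3 in interferon-led barcodes, then at 49.2 in activated, 36.8 in effector, 36.6 in cycling and 35.8 in globin- and granule-led barcodes. In KO the levels were 163 in resting, 157 in interferon-led, 138 in cycling, 126 in activated, 120 in globin- and granule-led and 75.3 in effector barcodes. Resting cells were thus highest in both libraries, and the WT levels outside the resting and interferon-led states lay below the lowest KO state. The resting and interferon-led levels overlapped within their intervals in both libraries, as did, in WT, effector and cycling barcodes.

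The KO to WT ratio of Ccr7 was 1.46 (1.36 to 1.56) in resting, 2.56 (2.27 to 2.90) in activated and 3.77 (3.38 to 4.23) in cycling barcodes. It was 2.05 (1.51 to 2.72) in the 87 effector barcodes of KO, and the interval lay above 1 in 6 of 6 states. The ratio was also above 1 in neutrophil (2.54, 1.45 to 4.61) and erythroid barcodes (6.75, 3.90 to 12.5). The higher KO value was thus not limited to T-lineage barcodes, and the part of free RNA in these ratios was not tested. Within WT, Ccr7 in effector barcodes was 0.330 of its resting level (0.300 to 0.362) and in cycling barcodes 0.328, whereas in KO the cycling level was 0.849 of the resting one. The cycling classes were not alike: 4 effector genes, Klrg1, Cxcr3, S100a4 and S100a6, summed to 1583 CPM in WT and 124 in KO cycling barcodes. They summed to 779 and 48.9 in activated and to 307 and 59.5 in resting barcodes. These 4 were picked from a longer effector marker list after their values were seen. The whole list summed to 4352 CPM in WT and 1526 in KO cycling barcodes and to 2187 and 1030 in activated ones. In resting barcodes it was nearer to level, at 1225 and 1077 CPM. The part of these differences in the ratios was not tested.

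Selplg was highest in effector (255 CPM) and resting (241 CPM) barcodes of WT, whose intervals overlapped. The other WT levels were 183 in interferon-led, 165 in cycling, 136 in globin- and granule-led and 96.9 CPM in activated barcodes. In KO, resting barcodes stood at 312, interferon-led at 285, effector at 259, globin- and granule-led at 215, cycling at 207 and activated at 158 CPM. Activated cells were thus lowest in both libraries. KO relative to WT stood at 1.29 (1.24 to 1.36) in resting, 1.63 (1.49 to 1.79) in activated and 1.26 (1.18 to 1.34) in cycling barcodes, but 1.02 (0.871 to 1.18) in effector barcodes. Neutrophil barcodes, which carry PSGL-1 themselves, held 117 CPM in WT and 174 in KO, a ratio of 1.49 (1.29 to 1.72), so that the higher KO value was not limited to T-lineage barcodes.

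S1pr1 ran from resting to activated cells in both libraries. In WT it was at 232 CPM in resting, 157 in interferon-led, 140 in effector, 92.9 in cycling, 86.6 in globin- and granule-led and 53.1 in activated barcodes. In KO it was at 191 in resting, 176 in interferon-led, 114 in globin- and granule-led, 107 in cycling, 85.5 in effector and 74.7 in activated barcodes. The span between the highest and the lowest state was wider in WT: the activated level was 0.229 of the resting level (0.204 to 0.256) in WT and 0.390 (0.361 to 0.421) in KO. Accordingly the KO to WT ratio lay on both sides of 1, at 0.824 (0.782 to 0.867) in resting and 0.612 (0.465 to 0.793) in effector but 1.41 (1.24 to 1.60) in activated and 1.15 (1.06 to 1.25) in cycling barcodes. Whether the ratio differs between states was not tested. With the mitochondrial limit at 10%, where the class named resting held 3362 WT and 1157 KO barcodes, the resting ratio was 1.12.

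S1pr4 had another pattern. Effector barcodes were highest in both libraries, at 195 CPM in WT and 207 in KO, and activated barcodes lowest, at 54.8 and 64.6 CPM. Between them lay WT cycling (128), resting (124), globin- and granule-led (110) and interferon-led (105 CPM) barcodes, whose neighbours overlapped, and KO resting (153), interferon-led (121), cycling (108) and globin- and granule-led (102 CPM) barcodes. Effector barcodes of WT thus held 1.57 times the resting level of S1pr4 (1.48 to 1.67) and only 0.600 times that of S1pr1 (0.568 to 0.634). The KO to WT ratio of S1pr4 was 1.23 (1.15 to 1.31) in resting, 1.06 (0.891 to 1.25) in effector, 1.18 (1.04 to 1.34) in activated and 0.847 (0.783 to 0.916) in cycling barcodes.

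Gpr183 was lower in KO. In WT it was at 72.7 CPM in activated, 61.6 in effector, 48.9 in resting, 48.6 in cycling, 38.8 in globin- and granule-led and 11.9 in interferon-led barcodes. In KO it was at 43.9 in activated, 27.4 in interferon-led, 27.2 in cycling, 24.5 in resting, 19.2 in globin- and granule-led and 17.4 CPM in effector barcodes. Activated cells were the highest in each library, 1.49 times the resting level in WT (1.31 to 1.68) and 1.79 times in KO (1.57 to 2.04). Relative to WT, KO stood at 0.502 (0.441 to 0.571) in resting, 0.603 (0.531 to 0.686) in activated, 0.559 (0.483 to 0.646) in cycling and 0.282 (0.145 to 0.495) in effector barcodes. The interferon-led cluster, with 5 Gpr183 UMIs in WT, went the other way with an interval that held 1 (0.953 to 7.26), and the interval lay below 1 in 5 of 6 states.

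The resting ratio of Gpr183 did not rise or fall steadily over bins of sequencing depth. Resting barcodes of 1000 to 2000 UMIs had a ratio of 0.538 (0.321 to 0.904), those of 2000 to 4000 of 0.502, those of 4000 to 8000 of 0.534 and deeper ones of 0.347 (0.224 to 0.536). Ubac2, which overlaps Gpr183 on the opposite strand, was higher in KO, at 75.8 CPM in WT and 87.8 in KO resting barcodes (1.16, 1.06 to 1.26). Over the same depth bins Ccr7 had ratios of 2.08, 1.22, 1.52 and 1.87. The S1pr1 ratio rose with depth, at 0.645, 0.764, 0.883 and 0.890, the last with an interval up to 1.06. The part of depth in these ratios was not tested.

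Ccr9 was a low gene. Its WT levels were 17.6 CPM in resting, 16.7 in interferon-led (7 UMIs), 7.96 in globin- and granule-led, 5.45 in activated, 3.88 in cycling and 3.78 in effector barcodes. In KO they were 15.7 in resting, 13.0 in cycling, 9.84 in globin- and granule-led, 7.80 in interferon-led and 7.69 CPM in activated barcodes. Effector barcodes of KO held 0 UMIs, which allows up to 4.35 CPM with 3 counts as the limit (5.35 by the exact Poisson interval). Resting cells again stood highest among the T-lineage states, though their interval overlapped that of interferon-led barcodes in WT and of cycling barcodes in KO. Neutrophil barcodes held 15.9 CPM in WT and 18.6 in KO, with intervals that overlapped those of resting barcodes. The genotypes did not differ beyond counting error in resting barcodes (0.890, 0.738 to 1.08), whereas cycling barcodes had a ratio of 3.35 (2.36 to 4.85).

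Cxcr4 was close to nil in T-lineage barcodes, with 66 UMIs in WT (1.36 CPM) and 78 in KO (1.49 CPM). By state it ran from 0 UMIs in the 79 interferon-led barcodes of WT, which allows up to 7.15 CPM with 3 counts as the limit (8.79 by the exact interval), to 2.99 CPM in WT globin- and granule-led barcodes, and from 0.732 to 2.68 CPM over the KO states. Neutrophil barcodes held 15.9 and 18.6 CPM and erythroid barcodes 3.05 and 5.18 CPM, each at or above the T-lineage levels. No fold was read from it in the T cell states.

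**Figure D2:**
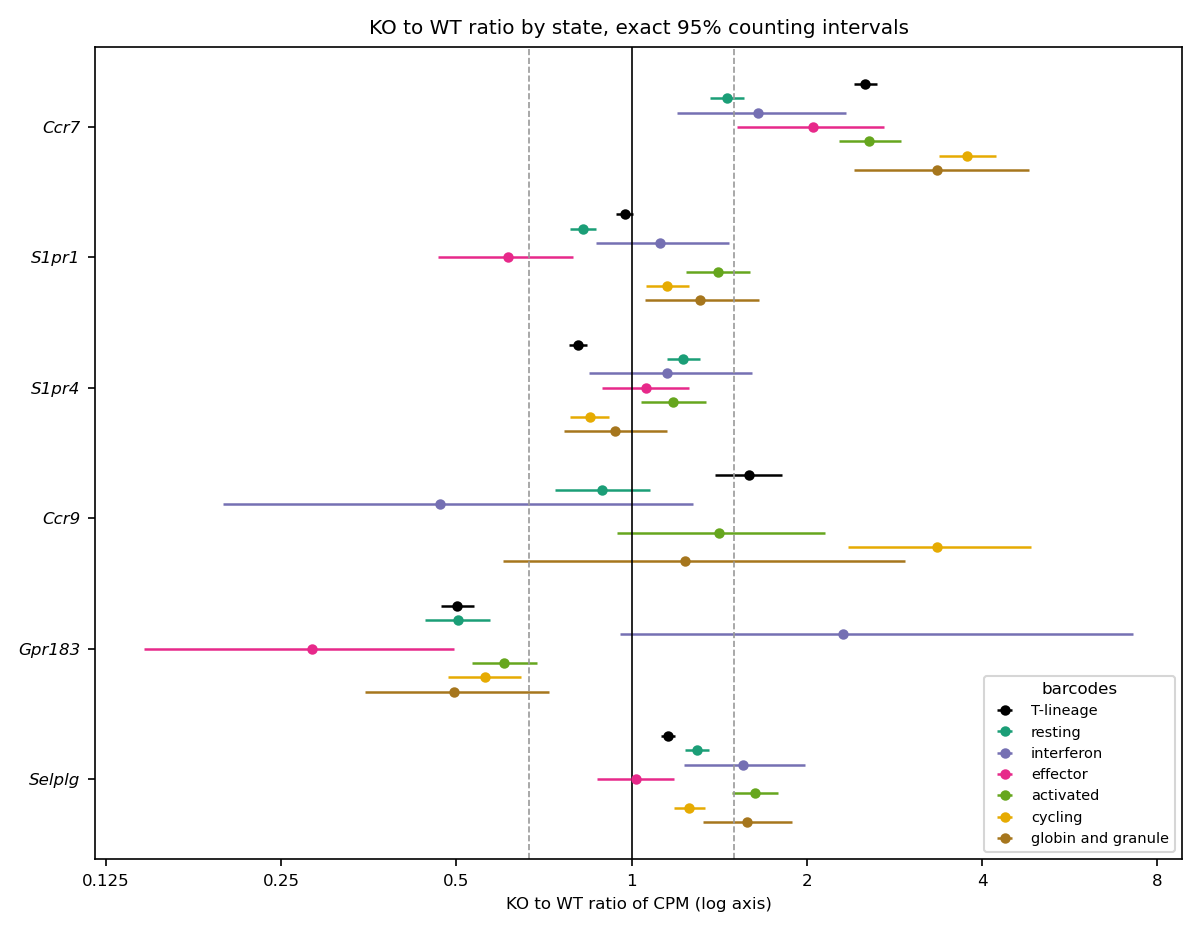
KO to WT ratio of CPM (x axis, log scale) for 6 receptors, over all T-lineage barcodes (black) and within each of 6 states (colours), with exact 95% intervals for counting error. Cxcr4 and the effector ratio of Ccr9, with 0 UMIs in KO, are left out. Dashed lines are 1.5-fold either way. Ccr7 lies right of 1 and Gpr183 left of it in nearly all states, whereas S1pr1 and S1pr4 have states on both sides.

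Over all T-lineage barcodes, Ccr7 went from 56.0 CPM in WT to 141 in KO, a ratio of 2.52 (2.41 to 2.64), and Ccr9 from 7.38 to 11.7 (1.59, 1.39 to 1.81). Gpr183 went from 56.4 to 28.3 CPM (0.502, 0.471 to 0.535). S1pr1 was level at 138 and 134 (0.973, 0.941 to 1.01), S1pr4 was at 142 and 115 (0.809, 0.781 to 0.837), and Selplg at 207 and 239 (1.16, 1.13 to 1.19). Hence 2 of the 6 receptors with at least 200 UMIs were higher in KO by 1.5-fold or more, against 4.17% of the 10243 genes tested, and 1 was lower, against 9.22%. Ccr7 was near the top of that distribution, with 77 genes at a higher ratio, and 357 genes had a lower ratio than Gpr183. The median log2 ratio was 0.08 over these 6 receptors, beside -0.06 for all genes tested. Over all 7 it was 0.13, which is the value of Cxcr4 itself, with 66 and 78 UMIs.

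Within resting barcodes, which both libraries held in number, 0 of 6 receptors were 1.5-fold or more higher in KO, against 1.46% of 7928 genes, and 1, Gpr183, was lower, against 8.21%. The call for Ccr7 (1.46-fold) is close to the threshold. In this state 146 genes had a higher ratio than Ccr7 and 89 a lower one than Gpr183. The median log2 ratio was 0.06 over these 6 receptors, beside -0.08 for all genes. With Cxcr4, at 8 and 22 UMIs, it was 0.30.

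In activated barcodes 2 of 5 receptors tested, Ccr7 and Selplg, were past 1.5-fold higher in KO (3.01% of all genes) and 1, Gpr183, lower (6.17%). In cycling barcodes Ccr7 alone was higher (5.90% of all genes) and Gpr183 alone lower (6.01%), again of 5. Within the WT library, effector against resting barcodes put S1pr4 past 1.5-fold higher, 1 of 6 where 10.9% of all genes were, and Ccr7, S1pr1 and Ccr9 lower, 3 of 6 where 12.6% were.

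The states entered the T-lineage totals in unequal numbers, since effector barcodes were 29.4% of the WT and 0.670% of the KO T-lineage barcodes. With each state's KO level weighted by the WT library's share of UMIs in that state, a weighting chosen after the values were seen, the ratio was 2.10 for Ccr7, 0.442 for Gpr183 and 1.18 for Selplg. For S1pr4 it was 1.06 in place of 0.809. For Ccr9 it was 1.06 with the 0 UMIs of KO effector barcodes taken as they are, and 1.28 with 3 counts there, in place of 1.59. S1pr1 went to 0.831, near its resting value. With this weighting the ratios of Ccr9 and S1pr4 were nearer to 1, and those of Ccr7 and Gpr183 kept their side of 1.5-fold. Effector barcodes held 18541578 of the 48499777 WT T-lineage UMIs. Their KO levels rest on 87 barcodes, with 52 UMIs of Ccr7, 59 of S1pr1, 143 of S1pr4, 12 of Gpr183, 179 of Selplg and 0 of Ccr9. No interval was made for the weighted ratios, and the part of the mix of states was not tested.

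**Figure D3:**
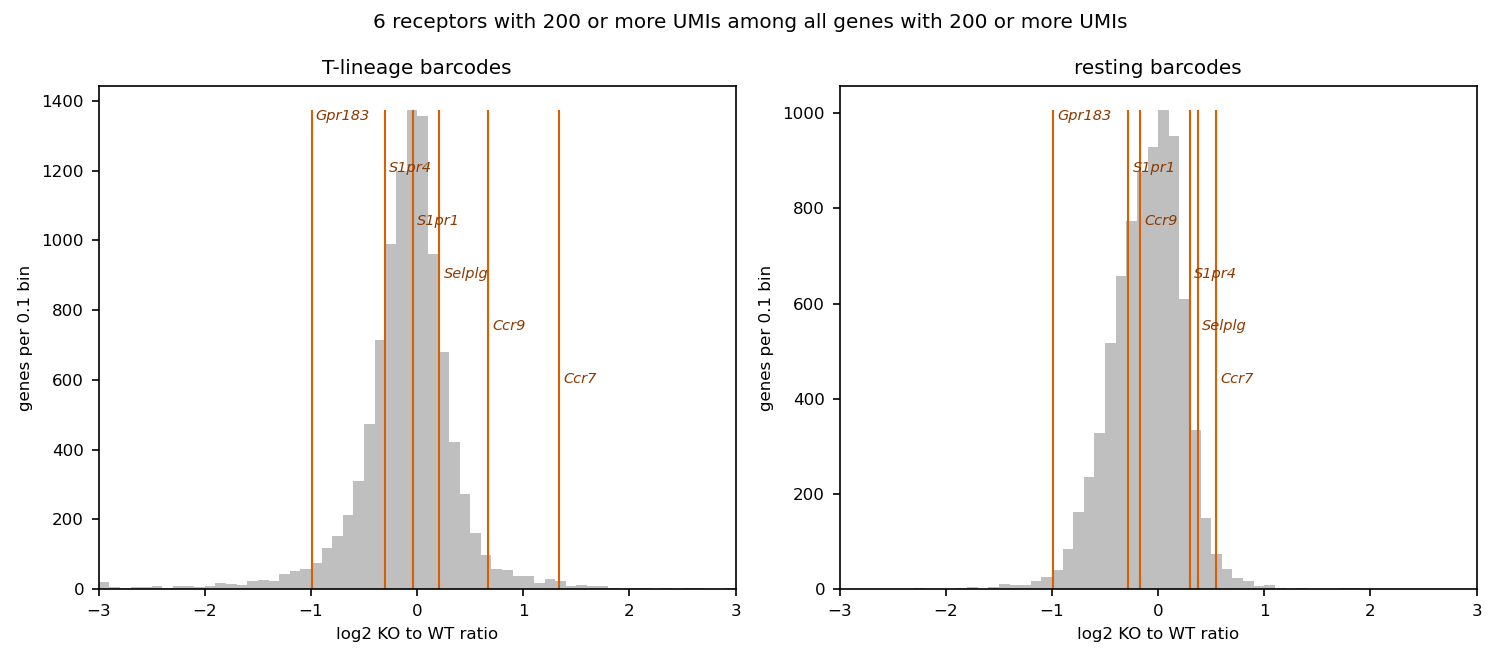
Number of genes (y axis) by log2 KO to WT ratio (x axis, bins of 0.1) in T-lineage (left) and resting (right) barcodes, for genes with at least 200 UMIs. Orange lines mark the 6 receptors that reach this minimum. Gpr183 is in the lower tail of both, Ccr7 in the upper tail, and the others lie within the bulk or at its edge.

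The share of barcodes with a UMI was compared after each barcode was thinned to 1000 UMIs, with erythroid barcodes, which should lack most of these genes, as the background of free RNA. In resting barcodes Ccr7 was detected in 11.0% of WT (9.85 to 12.3) and 14.3% of KO barcodes (13.2 to 15.4), and Gpr183 in 5.09% (4.29 to 6.00) and 2.54% (2.09 to 3.06). The erythroid shares were 1.69% and 7.31% for Ccr7 and 0% and 0.395% for Gpr183, where 0 of 237 barcodes allows a share of up to 1.27%, taking 3 counts as the limit. The Ccr7 background was thus higher in KO than in WT, whereas the intervals of the Gpr183 background overlapped (up to 1.54% in WT and 0.0479% to 1.42% in KO).

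For S1pr1 the resting shares were 21.8% in WT and 18.0% in KO, for S1pr4 11.2% and 14.3%, for Selplg 20.9% and 25.8% and for Ccr9 1.76% and 1.79%. Their erythroid shares ran from 0% for Ccr9 to 4.22% for Selplg in WT, and from 0.198% for Ccr9 to 9.68% for Selplg in KO. Without thinning the resting shares were 31.2% and 40.8% for Ccr7, 54.2% and 49.2% for S1pr1, 35.3% and 40.5% for S1pr4, 14.7% and 7.97% for Gpr183 and 56.3% and 63.4% for Selplg. Thus every one of these 5 genes kept its order between the libraries. In activated barcodes the thinned share of Ccr7 was 4.66% in WT and 11.7% in KO, and in cycling barcodes 3.79% and 15.1%, beside the erythroid shares above. The WT cycling share and the WT effector share, 3.87% (3.11 to 4.77), lay within the interval of the WT erythroid share, which reached 4.26%, and the interval of the WT activated share (3.21 to 6.51) overlapped it, so detection of Ccr7 in these 3 WT states is not told apart from free RNA at this depth. The same held for WT globin- and granule-led barcodes, at 2.33% (0.482 to 6.65). It also held for KO effector barcodes, at 8.05% (3.30 to 15.9) beside a KO erythroid interval of 5.20 to 9.94. Barcodes under 1000 UMIs left out were 100 of WT and 62 of KO in the resting state.

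Erythroid barcodes also held T cell transcripts. Per 1000 UMIs of 6 T cell receptor and CD3 genes, Ccr7 counted 8.40 UMIs in T-lineage and 6.47 in erythroid barcodes of WT, and 23.1 and 22.9 in those of KO. Gpr183 counted 8.45 and 5.61 in WT, and 4.62 and 5.19 in KO. The erythroid barcodes of KO thus held Ccr7 in the same proportion to T cell genes as the KO T-lineage barcodes. Cxcr4 counted 0.204 in T-lineage and 3.45 in erythroid barcodes of WT, so its UMIs there did not follow the T cell genes.

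**Figure D4:**
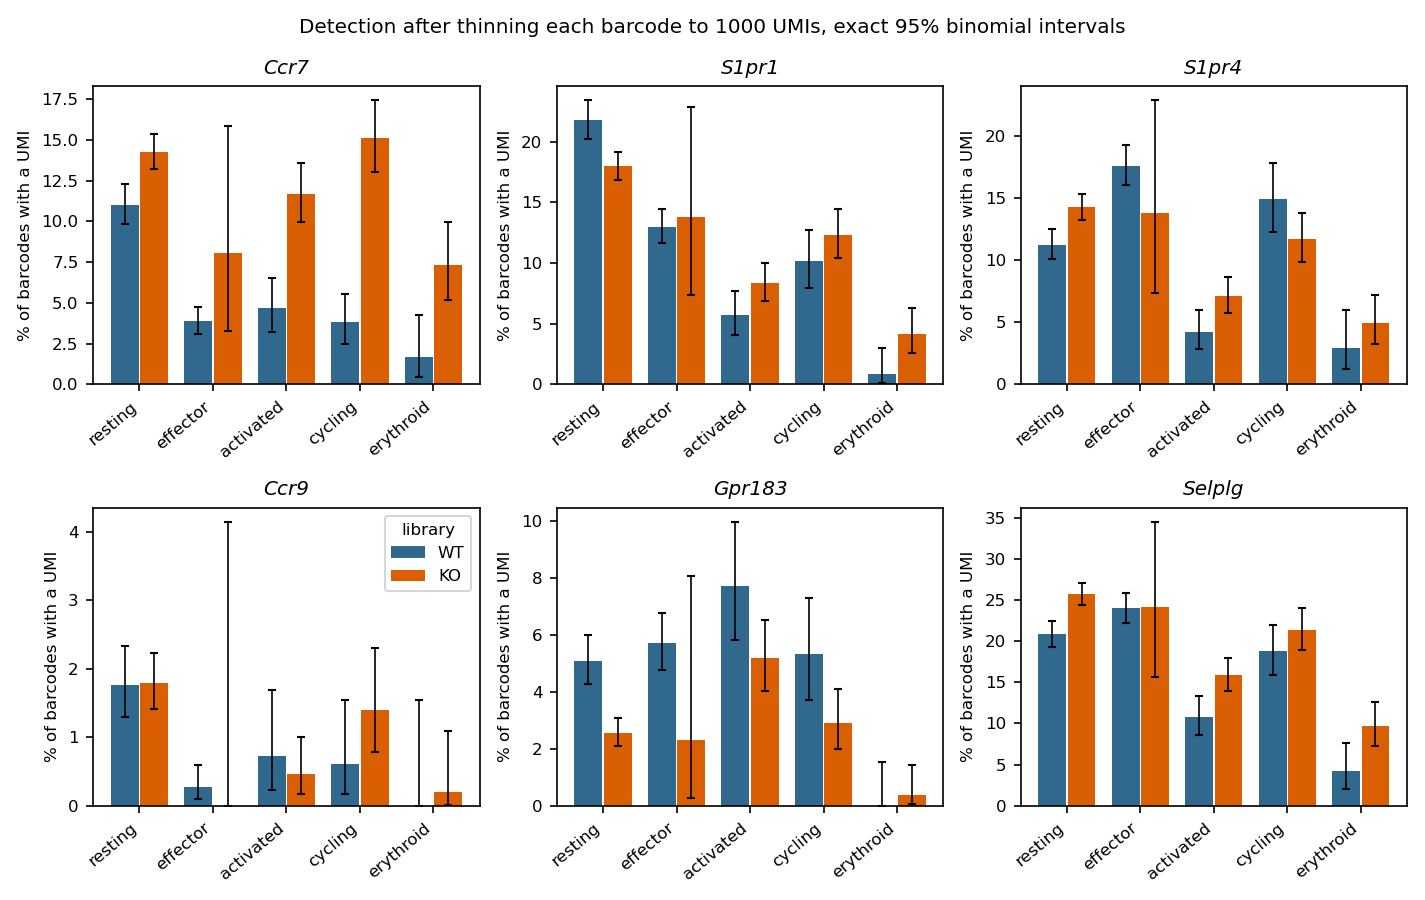
Percent of barcodes with a UMI of each of 6 receptors (y axis, from 0) after thinning to 1000 UMIs, in 4 T cell states and in erythroid barcodes, for WT (blue) and KO (orange), with exact 95% binomial intervals. Resting barcodes are above the erythroid share of their library for all 6 genes, and Gpr183 is the gene with the lower KO share in all 4 states.

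At 1000 UMIs a resting barcode showed at least 1 of the 7 receptors in 53.7% of WT (51.8 to 55.7) and 56.9% of KO barcodes (55.4 to 58.4), and 2 or more in 15.7% (14.4 to 17.2) and 16.8% (15.7 to 18.0). Activated barcodes had the lowest share with any receptor among the states, 29.8% (26.4 to 33.4) in WT and 39.9% (37.2 to 42.6) in KO. Ccr7 and S1pr1 were seen together in 2.32% of WT and 2.50% of KO resting barcodes, but in 0.455% and 2.52% of cycling ones. Erythroid barcodes had a receptor in 10.5% of WT and 23.3% of KO.

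Klf2, Foxo1 and Cd69, which act on S1pr1 or its product, had no resting ratio past 1.5-fold. Klf2 was at 525 CPM in WT and 684 in KO resting barcodes (1.30, 1.26 to 1.34), Foxo1 at 210 and 232 (1.11, 1.05 to 1.16), and Cd69 at 408 and 429 (1.05, 1.01 to 1.09). So Klf2 was higher in KO resting barcodes while S1pr1 was lower. Over all T-lineage barcodes their ratios were 1.33 for Klf2, 1.33 for Foxo1 and 1.41 for Cd69. In activated barcodes Klf2 had a ratio of 2.03 (1.90 to 2.18) and Cd69 of 1.46 (1.36 to 1.56), and there S1pr1 was higher in KO as well. In cycling barcodes the ratios were 1.46 for Klf2, 1.72 for Foxo1 (1.58 to 1.87) and 1.90 for Cd69 (1.80 to 2.01). In both libraries all 3 were lower in activated than in resting barcodes, from 0.325 times for Klf2 to 0.460 times for Cd69 and Foxo1 in WT, and from 0.466 times for Foxo1 to 0.637 times for Cd69 in KO. Erythroid barcodes held 48.0 CPM of Klf2 in WT and 132 in KO, 16.8 and 44.6 of Foxo1, and 34.3 and 60.5 of Cd69. S1pr1 stood at 18.7 and 35.4 CPM there, but at 19.1 and 17.5 in neutrophil barcodes. Higher KO values of these genes were thus not limited to T-lineage barcodes, and the part of free RNA was not tested.

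The wider S1P list, which holds further receptors, S1P-making and S1P-degrading enzymes and signalling partners, had 9 of 17 genes with enough UMIs in resting barcodes, 0 past 1.5-fold in either direction, where 1.46% of all genes were higher and 8.21% lower. Its median log2 ratio was 0.05. Over T-lineage barcodes 2 of 11 were lower, S1pr2 and Plpp1, and 0 higher, where 9.22% and 4.17% of all genes were. For chemokine receptor signalling, 1 of 28 genes tested was past 1.5-fold lower in resting barcodes (8.21% of all genes): Pik3cg, the catalytic subunit of phosphoinositide 3-kinase gamma, at 19.7 CPM in WT and 11.0 in KO (0.559, 0.459 to 0.682). The list's median was -0.12. Dock2, a guanine nucleotide exchange factor needed for lymphocyte migration, joined it over T-lineage barcodes (0.666, 0.649 to 0.684), and stood at 0.700 in resting ones.

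Of P- and E-selectin and the enzymes that decorate selectin ligands such as PSGL-1, 0 of 5 tested were past 1.5-fold in resting barcodes, with a median log2 ratio of 0.14. Over T-lineage barcodes Fut7, the fucosyltransferase that completes selectin ligands, was at 7.15 CPM in WT and 1.14 in KO (0.160, 0.119 to 0.211), and Gcnt1, which builds their branched glycans, at 3.48 and 0.896 (0.257, 0.182 to 0.357). Selp went the other way (1.78, 1.39 to 2.28), so that 1 of 9 was higher (4.17% of all genes) and 2 were lower (9.22%). In resting barcodes Fut7 had 22 UMIs in WT and 10 in KO, and Gcnt1 12 and 8, which was too few to count there.

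Ligands and oxysterol enzymes were scarcely measured, with 2 of 10 genes at 200 UMIs. Ebi3, in fact a cytokine subunit and no oxysterol gene, was at 14.2 CPM in WT and 9.11 in KO resting barcodes (0.643, 0.513 to 0.807). Ch25h, which makes the precursor of the GPR183 ligand, had 3 UMIs in each library over T-lineage barcodes. Among other lymphoid receptors Lpar6, a lysophosphatidic acid receptor, was lower in KO resting barcodes (17.3 and 10.8 CPM, 0.622, 0.506 to 0.764), 1 of 3 tested (8.21% of all genes), with a list median of -0.47. Over T-lineage barcodes 3 of 6 were lower (9.22% of all genes), among them Cxcr5, the receptor of B cell follicles (0.280, 0.226 to 0.344).

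The 10 inflammatory and tissue chemokine receptors taken for comparison behaved otherwise over T-lineage barcodes: 6 of 7 tested were lower in KO by 1.5-fold or more, against 9.22% of all genes, and 0 higher, against 4.17%, with a median log2 ratio of -2.89. Cxcr3 went from 69.7 to 4.80 CPM (0.0689, 0.0604 to 0.0783) and Ccr2 from 26.0 to 2.40 (0.0923, 0.0762 to 0.111). Ccr10 had 241 UMIs in WT and 0 in KO, at least 86.9-fold lower with 3 counts taken as the KO floor, and the exact interval of the ratio reached 0.0143. Cxcr3 is also an effector marker, and the list moved with the effector barcodes, of which KO had 87. In resting barcodes none of the 10 reached 200 UMIs, so the lists could not be set side by side there, and the difference between them was not tested.

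**Figure D5:**
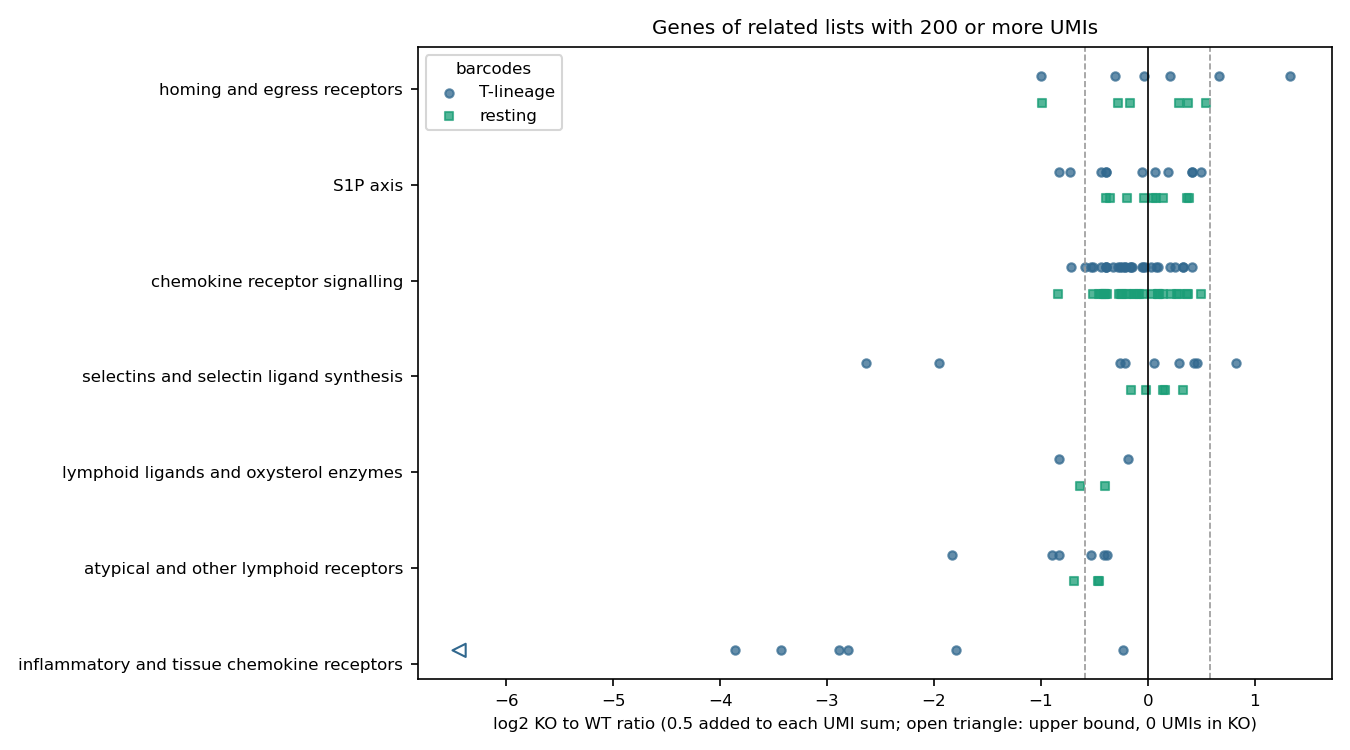
log2 KO to WT ratio (x axis) of the genes with at least 200 UMIs in the receptor set and in 6 related lists, over T-lineage (blue circles) and resting (green squares) barcodes. Dashed lines are 1.5-fold either way, and the open triangle is the bound for Ccr10, with 0 UMIs in KO. The inflammatory receptors lie far left, whereas the S1P and signalling lists lie mostly between the dashed lines.

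The receptors were compared with all 8707 genes of at least 500 UMIs by their log2 CPM over 12 profiles, the 6 states of both libraries. These profiles share 2 libraries and differ in depth, and the correlations are descriptions across states. The genes most like Ccr7 were Lta (r = 0.95), Igf2r (0.94) and Mbnl3 (0.94), and those most like S1pr1 were Jakmip1 (0.96), Cast (0.95) and Gm2682 (0.95). S1pr4 ran with Rap1b (0.95), Tmsb4x (0.94) and Coro1a (0.93), and Selplg with Itgb7 (0.96), Tmem50a (0.95) and Slc9a3r1 (0.94). Ccr9 ran with Fam89a (0.96), Ppm1l (0.96) and Afdn (0.95). Gpr183 had the least close neighbours, Swap70 (0.91), Xpo5 (0.89) and Hs2st1 (0.88). Among the receptors themselves the highest values were 0.78 for S1pr1 with Selplg and 0.77 for S1pr4 with Selplg, and the lowest was -0.52 for Ccr7 with Gpr183, so the 7 did not follow 1 common profile.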

How the data were processed

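The authors sorted splenic YFP+7AAD- cells, made 10x Chromium libraries and counted them with Cell Ranger 5.0.1 on mm10 (per the labels). The deposited values are raw UMI counts per gene and barcode. The filters of the study's methods had not been applied, since barcodes above 5% mitochondrial UMIs and under 300 genes were present.

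From these counts, barcodes were filtered (300 genes, 5% mitochondrial UMIs), scaled to 10000 UMIs, log-transformed and clustered with 2000 variable genes, 30 principal components (scikit-learn 1.9.0), 20 neighbours and Leiden at resolution 0.5 (igraph 0.11.9). Doublets were kept; a Scrublet alternative (scanpy 1.11.5) removed 5% of WT and 8% of KO barcodes. A cluster was T-lineage with at least 50% of the T gene CPM of the highest cluster. It took the state whose marker list had the highest median fold, with 3 markers raised 1.5-fold. This rule and the interferon class (5 of 10 leading genes) were set after the data were seen. The receptors, lists and markers were chosen with earlier results of these data known.

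UMIs were summed by library and state. Ratios for calls added 0.5 to each sum and needed 200 UMIs over both libraries. Intervals were exact Poisson, conditional binomial or Clopper-Pearson (scipy 1.17.1). TMM factors came from edgeR 4.0.16. Interval code was tested on simulated counts. The genes named were all 7 receptors, Klf2, Foxo1 and Cd69, list genes past 1.5-fold in resting barcodes, and the 3 most alike genes. List genes named for T-lineage ratios, and the genes set beside the receptors as checks (Ubac2, Ch25h and the effector markers), were chosen after their values were seen. One gene of the selectin list is not reported here. Alternatives were the doublet removal, mitochondrial limits of 10% and 3%, a minimum of 1000 UMIs, means of single-barcode CPM, totals without mitochondrial, haemoglobin and ribosomal genes, thinning, TMM, resolution 1.0 and no UMI minimum.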

Additional observations from a re-analysis of the deposited data

Results flagged for a closer look

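The KO to WT ratio of S1pr1 was below 1 in resting barcodes (0.824) and above 1 in activated (1.41) and cycling (1.15) barcodes, with counting intervals clear of 1 in all 3. S1pr4 was above 1 in resting (1.23) and activated (1.18) barcodes and below 1 in cycling (0.847) barcodes. These 3 opposite directions were not tested, since each state has 1 library per genotype. The summed CPM of Klrg1, Cxcr3, S100a4 and S100a6 differed between WT and KO in these states (307 and 59.5 in resting, 779 and 48.9 in activated, 1583 and 124 in cycling). These genes were picked from a longer effector marker list after their values were seen. The whole list summed to 1225 and 1077 CPM in resting, 2187 and 1030 in activated and 4352 and 1526 in cycling barcodes. The part of these differences in the ratios was not tested. With the mitochondrial limit at 10%, which changed both the barcodes and the resting class, the resting ratio of S1pr1 was 1.12, and with resolution 1.0, which changed the class alone, it was 0.909.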

How the results depend on the processing

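Over T-lineage barcodes the count of receptors past 1.5-fold stayed at 2 or 3 in 11 alternatives: Ccr7 higher and Gpr183 lower in all, Ccr9 higher in all but the 10% mitochondrial limit, the mean of single-barcode CPM and the thinned counts. In resting barcodes Gpr183 was lower in all 11 (0.462 to 0.638). The resting count was 2 in place of 1 under the 10% mitochondrial limit, resolution 1.0 and TMM, where Ccr7 passed the fold, and with no UMI minimum, where Cxcr4 (8 UMIs in WT and 22 in KO) did. The first 2 redrew the resting class, to 3362 and 1157 barcodes at 10% and 2115 WT and 1574 KO at resolution 1.0. The median log2 ratio of the 7 receptors, Cxcr4 included, in resting barcodes went from 0.30 to -0.17 with the mean of single-barcode CPM and to 0.45 with TMM. TMM moved the median of all resting genes from -0.08 to 0.07, as it rescales all genes by 1 factor. Without the globin- and granule-led clusters the T-lineage median of the receptors was -0.01 in place of 0.13. For S1pr1, T-lineage ratios ranged from 0.832 (thinned) to 1.02 (TMM). No paired analysis was possible because each group has 1 library. Within the states, counting depth limits Cxcr4 and, outside resting barcodes, Ccr9. The alternatives without globin- and granule-led clusters and with the interferon-led cluster were chosen after seeing the data and changed no count.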
